A study of Trichoderma reesei with 15 samples.

Results

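The comparison described here lies within a single strain of the filamentous fungus Trichoderma reesei. It sets the libraries numbered 1 of the parent strain QM6aΔmus53 against the libraries numbered 2. The 4 parent libraries, of 15 in the series, were taken by their titles: replicates 1 and 2 of the experiment tagged DD1, and replicates 1 and 2 of the experiment tagged DD3. The parent is deleted for mus53, which takes part in non-homologous end joining, and every deletion strain of the series carries that loss too. The other libraries come from strains that also lack pp2A (DD1, n = 4), pph5 (DD1, n = 3) or pph5-2 (DD3, n = 4). All were mycelium grown in darkness on cellulose in minimal medium for 96 h at 28 °C. No source used here explains the tags DD1 and DD3 or the replicate numbers, and nothing says that the replicates were separate cultures. The spread behind each p-value is that between these libraries, and it may be technical.

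T. reesei lives on plant biomass and secretes large amounts of cellulases, the enzymes that cut cellulose into soluble sugars. Cellulase genes of this fungus are transcribed under the activator Xyr1 when cellulose breakdown products are sensed, and the repressor Cre1 acts on them when glucose is plentiful. Protein phosphatases of the PP2A and PP5 types remove phosphate groups from serine and threonine residues and act in many signalling routes. The deposited table identifies genes by systematic identifiers that it pairs with no names, and 0 of 10879 matched the reference gene table. No cellulase or regulator is therefore named, the mycelium label could not be checked against markers, and at most 2 identifiers per direction are given.

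The 4 parent libraries were of similar depth, with 9310996 counts in DD1 replicate 1, 9906943 in DD1 replicate 2, 9733138 in DD3 replicate 1 and 10499078 in DD3 replicate 2. They detected between 9590 and 9738 genes with at least 1 count. The 100 most abundant genes of each library held between 25.6% and 27.6% of its counts. None of the parent libraries was a copy of another: between libraries with the same number the chi-square per degree of freedom over genes was 70.7 (replicates 1) and 28.6 (replicates 2), where sampling noise alone gives a value near 1. Between libraries with different numbers it ran from 93.8 to 273.

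Candidates for the deleted genes were known from earlier results of these data. Their counts are therefore given as a description and are no independent check of the labels. TrE1020W had 0 counts in all 3 Δpph5 libraries, TrE0027W had 0 counts in all 4 Δpph5-2 libraries, and TrG1101W had 0 counts in 3 Δpp2A libraries and 4 counts in Δpp2A replicate 4. Δpp2A replicate 1, which carries a wild-type entry in 1 label, was among the libraries with 0 counts of TrG1101W. In the Δpph5-2 libraries, whose strain entry names pph5, TrE1020W stood at 117 to 129 CPM (the count divided by the TMM-scaled library size). All 3 genes were present in each parent library. TrE1020W stood at 123 and 125 CPM in the parent replicates 1 of DD1 and DD3, and at 132 and 137 CPM in the replicates 2. In edgeR's quasi-likelihood test between the numbers its log2 fold change was 0.13 (SE 0.12, adjusted p = 0.538), and TrG1101W and TrE0027W had adjusted p-values of 0.729 and 0.681.

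Parent replicates 1 held high levels of a group of transcripts that were low or nearly absent in parent replicates 2. In both experiments 234 of the 8374 genes tested (2.79%) were at least 4-fold higher in replicate 1. At the same fold, 0 genes (0%) were higher in replicate 2 in both. The median difference of the 234 genes was 16.3-fold in DD1 and 8.02-fold in DD3, and 48 genes were at least 16-fold and 14 at least 32-fold apart in both. These genes took up 7.83% of all counts in DD1 replicate 1 and 4.50% in DD3 replicate 1, against 0.417% and 0.545% in the corresponding replicates 2. The 234 genes were chosen from these same libraries, so their parent values are a description. In bulk libraries, fewer cells of a type and less RNA per cell cannot be told apart.

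**Figure D1:**
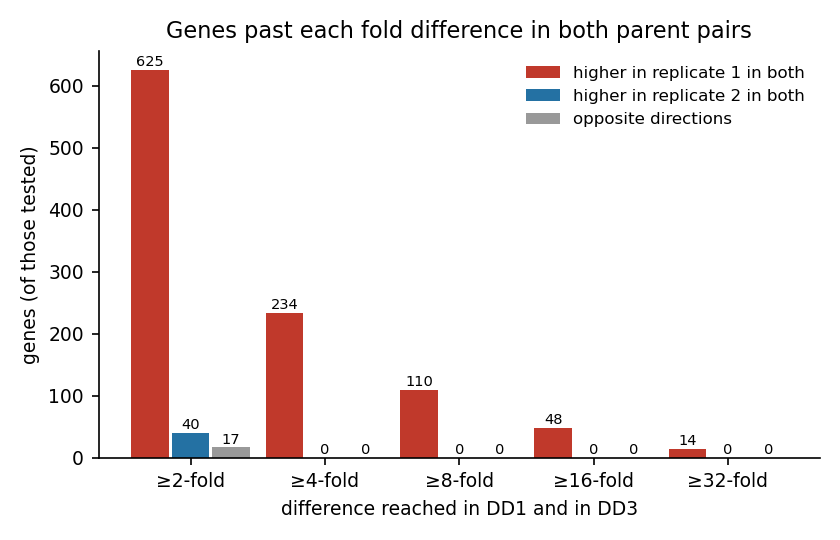
Number of genes, of 8374 tested, that differed between parent replicates 1 and 2 by at least the fold on the horizontal axis in DD1 and also in DD3; red bars are higher in replicate 1 in both, blue bars higher in replicate 2 in both, and grey bars opposite in direction. From 4-fold upward every gene past the limit in both experiments was higher in replicate 1.

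The opposite group was smaller and shifted less. At least 2-fold in both experiments, 625 genes (7.46%) were higher in replicate 1 and 40 genes (0.478%) higher in replicate 2, and 17 genes were past 2-fold in opposite directions. The median log2 ratio of the 40 genes was 1.49 in DD1 and 1.13 in DD3. Of these 40, 29 lay in the lowest quartile of genes by level per length. In replicates 1, where they are low by the choice, 7 reached a mean of 10 CPM. Their median level per kilobase was 2.96 CPM in replicates 1 and 7.70 CPM in replicates 2, against 32.6 and 30.1 CPM for all genes tested. Scaling by library size only gave 541 and 59 genes at the 2-fold limit, and 213 genes against 1 at the 4-fold limit. It shifted the median log2 ratio of the genes tested by 0.16, and upper-quartile scaling shifted it by 0.13.

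By edgeR's quasi-likelihood test with the experiment tag as a block, 0 of 8374 genes (0%) passed an adjusted p of 0.05, and the lowest adjusted p was 0.0732. Without adjustment 1829 genes (21.8%) had a p under 0.05, of which 1316 (15.7%) were higher in replicate 1 and 513 (6.13%) higher in replicate 2. With upper-quartile scaling this split was 1111 against 1183, and with library size only 1106 against 1254. All 234 genes were among those with an unadjusted p under 0.05, with adjusted p-values from 0.0732 to 0.214. DESeq2 with the same design called 855 genes (10.2%), of which 698 (8.34%) were higher in replicate 1 and 157 (1.87%) higher in replicate 2. Its calls included 217 of the 234 genes, which is 25.4% of the calls and 92.7% of the group. With 1 residual degree of freedom per gene, a gene's own part of edgeR's error term is the disagreement between its DD1 and DD3 ratios. That part was moderated by the spread over all genes, with a median of 2.32 prior degrees of freedom. A fit without 1 parent library holds only 1 intact pair, so its replicate ratio is that of DD1 or DD3 alone.

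Both parent libraries of a number stood apart from both of the other number in 5516 genes (65.9%), with 2797 (33.4%) higher in replicates 1 and 2719 (32.5%) higher in replicates 2. Of the summed squared differences among the 4 parent libraries on the log2 scale, 77.0% lay between replicate numbers, 10.3% between experiment tags and 12.6% in the difference between the DD1 and DD3 ratios.

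**Figure D2:**
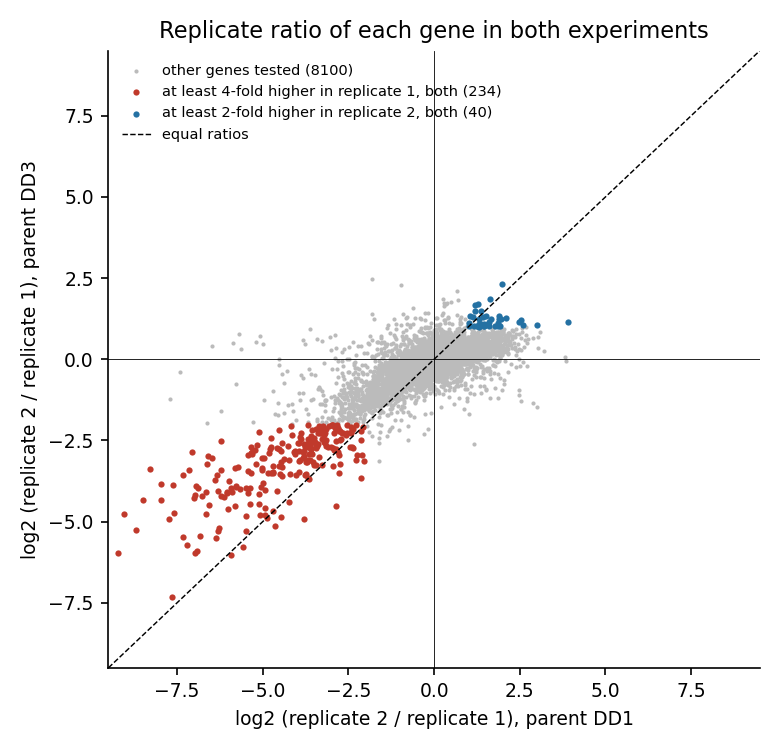
Log2 ratio of replicate 2 to replicate 1 for each of the 8374 genes tested, in parent DD1 (horizontal axis) and parent DD3 (vertical axis). Red points are the 234 genes at least 4-fold higher in replicate 1 in both experiments, blue points the 40 genes at least 2-fold higher in replicate 2 in both, and the dashed line marks equal ratios; most red points lie above it, with the larger difference in DD1.

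The 2 experiments used different libraries, so genes chosen in 1 of them could be read in the other. Of 535 genes at least 4-fold higher in replicate 1 in DD1, 508 (95.0%) were also higher in replicate 1 in DD3, where 49.8% of all genes tested were. In DD3 430 of the 535 were at least 2-fold and 234 at least 4-fold higher in replicate 1, and 0 were at least 2-fold higher in replicate 2. Their median log2 ratio of replicate 2 to 1 in DD3 was -1.82. In the other direction, 252 genes were chosen in DD3, and 251 of them (99.6%) were higher in replicate 1 in DD1, with a median log2 ratio of -3.89. Genes at least 4-fold higher in replicate 2 in DD1 numbered 98, of which 82 (83.7%) kept that direction in DD3, 6 by at least 2-fold, while 4 were at least 2-fold higher in replicate 1 there. For 4 genes past 4-fold toward replicate 2 in DD3, 2 had the same direction in DD1.

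Across all 8374 genes the DD1 and DD3 ratios correlated at r = 0.792 (Spearman's rho 0.675), given as a description, since genes of a library share its depth and scaling. The least-squares slope of the DD3 ratio on the DD1 ratio was 0.499. The SD of the log2 ratio over genes was 1.19 in DD1 and 0.741 in DD3, and 210 of the 234 genes differed more in DD1. The difference between the DD1 and DD3 ratios was also tested over all 15 libraries. Each parent library was assumed there to vary like the libraries of the deletion groups. By edgeR 0 of 8912 genes were called (0%, lowest adjusted p 0.266). Libraries of the deletion groups themselves spread along the parent difference, and that spread enters the error of this test. The count of 0 therefore does not show that the DD1 and DD3 ratios agree. Before adjustment 250 genes (2.81%) had a p under 0.05, and 638 when Δpph5 replicate 1 was left out. By DESeq2 the count of calls was 3.

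The parents were also compared between the experiment tags. Between the DD3 and DD1 parents, with the replicate number as block, 0 of 8374 genes were called by edgeR (0%), 161 (1.92%) had an unadjusted p under 0.05, and DESeq2 called 10 (0.119%). With 1 parent library left out, this contrast rests on the 1 number that keeps both parent libraries, and nothing is drawn from it. In both numbers 41 genes differed between the tags by at least 2-fold in the same direction and 3 by at least 4-fold.

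The genes named here follow a rule that asked for an adjusted p under 0.05, a mean of 10 CPM in the higher number and no overlap. It gave 0 genes, so the unadjusted p was used in its place after the values were seen. Among 1144 genes higher in replicate 1, TrG0638W (coding length 1116 bases) had the largest fold change. Its level was 25.3 CPM in DD1 replicate 1 and 12.6 CPM in DD3 replicate 1, from 200 and 113 counts, and it had 0 counts in both replicates 2. Set against 3 counts over the summed totals of both replicates 2, a limit for counting error only, it was at least 113-fold higher in replicates 1 (adjusted p = 0.0952 by edgeR).

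TrG0638W was also either present at a like level or nearly absent in the deletion strains. It reached 34.7 CPM in Δpph5 replicate 2 and 26.6 CPM in Δpph5 replicate 3, and had 0 counts in Δpph5 replicate 1. In the Δpp2A libraries it lay between 0 and 0.209 CPM. In Δpph5-2 it had 0 counts in replicates 1, 2 and 3 and 0.690 CPM in replicate 4.

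TrE0998W (coding length 1020 bases) had the highest level per length among the genes higher in replicate 1. It was at 12987 CPM in DD1 replicate 1, 8783 CPM in DD3 replicate 1, 3470 CPM in DD1 replicate 2 and 3960 CPM in DD3 replicate 2. The numbers did not overlap, at 10885 ± 2972 CPM (SD, n = 2) in replicates 1 and 3715 ± 346 CPM (SD, n = 2) in replicates 2. EdgeR gave a log2 ratio of replicate 2 to 1 of -1.51 (SE 0.26, adjusted p = 0.128). Per kilobase of coding length these levels were 10672 and 3642 CPM, so this transcript stayed abundant in every parent library. In Δpph5 it stood at 3178, 15717 and 12233 CPM in replicates 1, 2 and 3, and in Δpp2A between 2632 and 3536 CPM. In Δpph5-2 it was at 2825 to 3243 CPM in replicates 1 to 3 and at 6039 CPM in replicate 4.

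Among 477 genes higher in replicate 2, TrB1896C (coding length 507 bases) had the largest fold change. It was at 1.90 and 3.68 CPM in the replicates 1 of DD1 and DD3 and at 12.5 and 7.88 CPM in the replicates 2, without overlap. By edgeR it was higher in replicates 2 by 1.86 on the log2 scale (SE 0.53, adjusted p = 0.209). All 11 deletion libraries lay between 2.72 and 6.59 CPM, below both parent replicates 2.

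TrG0087C (coding length 309 bases) had the highest level per length in that direction. It stood at 1243 CPM in DD1 replicate 1, 3280 CPM in DD3 replicate 1, 4300 CPM in DD1 replicate 2 and 5387 CPM in DD3 replicate 2. The means were 2262 ± 1441 CPM (SD, n = 2) in replicates 1 and 4844 ± 769 CPM (SD, n = 2) in replicates 2, or 1.27 apart on the log2 scale by edgeR (SE 0.35, adjusted p = 0.200). Its DD3 replicate 1 value lay nearer to DD1 replicate 2 than to DD1 replicate 1. In Δpp2A it was at 944 to 1155 CPM, below every parent library, in Δpph5 at 993 to 1830 CPM and in Δpph5-2 at 1833 to 3790 CPM.

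**Figure D3:**
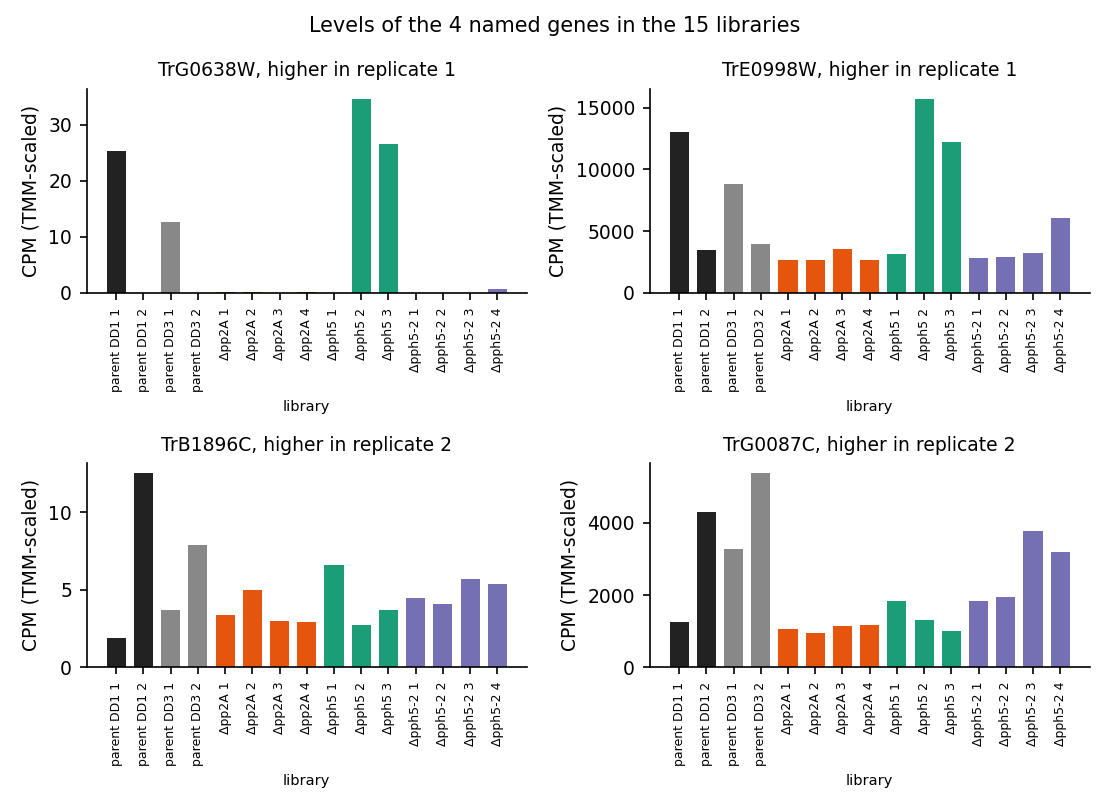
Levels of the 4 named genes in TMM-scaled CPM (vertical axis, linear, from 0) in each of the 15 libraries; each bar is a single library and its colour gives the strain and experiment. TrG0638W and TrE0998W were highest in the parent replicates 1 and in Δpph5 replicates 2 and 3, while TrB1896C and TrG0087C were highest in parent replicates 2.

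The 234 genes higher in replicate 1 covered a wide range of levels. In replicates 1, 189 had a mean of at least 10 CPM, 91 of at least 100 CPM and 15 of at least 1000 CPM, while in replicates 2 only 9 reached 100 CPM and 0 reached 1000 CPM. Under 1 CPM in both replicates 2 lay 58 of the 234, and 7 of these had 0 counts there. Such genes passed the filter on low counts through replicates 1, so they had to differ and nothing is drawn from their number. The median level per kilobase of the group was 56.2 CPM in replicates 1 and 3.34 CPM in replicates 2, against 32.6 and 30.1 CPM for all genes tested. Among the 100 genes most abundant per length in the parents, 7 belonged to the group, and the median log2 ratio was -0.06. At an unadjusted p under 0.05 by edgeR, 19 of the 100 were higher in replicate 1 and 5 higher in replicate 2. Over all genes tested the shares were 2.79% in the group, 15.7% higher in replicate 1 and 6.13% higher in replicate 2.

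The share of the group was lowest among long genes. Its median coding length was 1024.5 bases, against 1284 for all genes tested. By quartile of coding length, the group made up 3.77% of the shortest genes, 3.83% and 2.53% of the middle ones, and 1.05% of the longest (1893 bases and more). The median log2 ratio of all genes in the longest quartile was 0.07. Coding length can move with RNA quality, and its part in the replicate difference was not tested. By quartile of level per length the share was 3.34% in the lowest, 2.53% and 1.43% in the middle and 3.87% in the highest.

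Identifiers of the group were spread over all 7 letters of the identifier series, from 2.17% of the genes tested under letter G to 3.61% under letter F. Some genes of the group had consecutive running numbers. Of the 234 genes 41 (17.5%) had a gene of the group as the preceding or following running number, while 290 of the 8140 other genes (3.56%) had one. These 41 genes formed 13 pairs and 5 runs of 3. The sources used here do not explain letters and numbers, and reads of overlapping genes may be split between them.

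The deletion libraries took no part in choosing the 234 genes, so their place along the parent difference was not set by that choice. For each gene, the mean log2 CPM of the parent replicates 1 was set to 0 and that of the replicates 2 to 1, and the position of a library is the median over the 234 genes. Each parent library was also placed on the difference of the other experiment alone. There DD1 replicates 1 and 2 lay at -0.230 and 1.09 (256 genes at least 4-fold apart in DD3), and DD3 replicates 1 and 2 at 0.309 and 0.892 (633 genes at least 4-fold apart in DD1). Parents with the same number thus lay toward the same end in both experiments.

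Δpph5 libraries lay at both ends. Replicate 2 was at -0.224 and replicate 3 at -0.109, slightly beyond the mean of parent replicates 1, and replicate 1 was at 0.880, near parent replicates 2. In each of replicates 2 and 3, 224 of the 234 genes were at least within 2-fold of the level in parent replicates 1 or above it, while in replicate 1 this held for 14. The group took up 9.11% and 7.51% of the counts in Δpph5 replicates 2 and 3, and 0.857% in replicate 1. The mean position of the strain was 0.182 ± 0.607 (SD, n = 3), and it was -0.166 without replicate 1, 0.386 without replicate 2 and 0.328 without replicate 3. The Δpph5 strain as a whole therefore had no common position. Library totals were 9842288, 6026511 and 8496557 counts in replicates 1, 2 and 3, and the part of depth in these positions was not tested.

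Δpph5-2 libraries lay mostly at the end of parent replicates 2. Replicates 1, 2 and 3 were at 0.962, 0.997 and 1.01, and replicate 4 was at 0.400, giving a mean of 0.842 ± 0.295 (SD, n = 4). The group held 0.430% to 0.496% of the counts in replicates 1 to 3 and 2.48% in replicate 4. In replicate 4, 231 of the 234 genes lay between the means of the parent numbers. Of the 234, 62 were within 2-fold of the level in parent replicates 1 or above it, and 20 were within 2-fold of parent replicates 2, so genes of the group differed in how far they lay from either end. On the linear CPM scale its genes had covered a median of 27.0% of the way from parent replicates 2 to parent replicates 1, with quartiles over genes of 16.5% and 41.9%.

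Δpp2A libraries lay toward parent replicates 2 for this group. Their positions were 0.966, 0.999, 0.702 and 0.929 in replicates 1 to 4, a mean of 0.899 ± 0.135 (SD, n = 4). Replicate 3 was the one farthest from that end, with 50 of the 234 genes at least 4-fold above the mean of parent replicates 2, against 13 to 17 in the other Δpp2A libraries. Between 10 and 23 genes of the group were near or above the level of parent replicates 1 in each Δpp2A library.

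**Figure D4:**
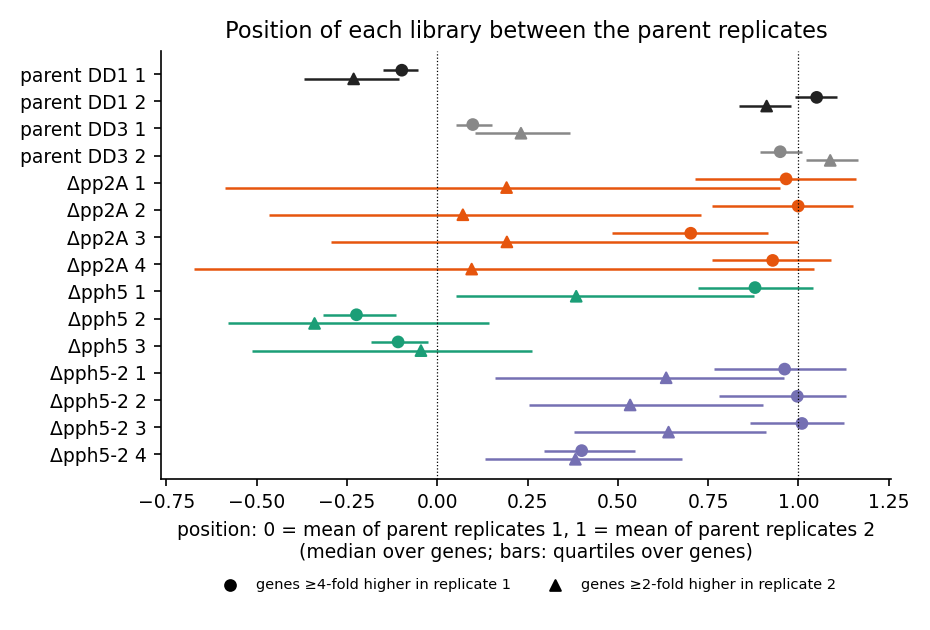
Position of each of the 15 libraries on the horizontal axis (0 is the mean of parent replicates 1, 1 that of parent replicates 2), as the median over the 234 genes higher in replicate 1 (circles) and the 40 genes higher in replicate 2 (triangles); bars give the quartiles over genes and colours the groups. For the 234 genes, Δpph5 replicates 2 and 3 lie at -0.224 and -0.109, Δpph5-2 replicate 4 at 0.400, and the other deletion libraries between 0.702 and 1.01.

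The replicate number was no common label of state across strains. Number 1 lay at the low end of the scale in the parents but at 0.966, 0.880 and 0.962 in Δpp2A, Δpph5 and Δpph5-2, and number 2 lay at the high end in the parents but at -0.224 in Δpph5. The 40 genes higher in parent replicates 2 gave another order. On them the Δpp2A libraries had medians between 0.0708 and 0.193. The quartiles over genes spanned most of the scale, from -0.293 to 0.998 in replicate 3 and from -0.673 to 1.04 in replicate 4. The Δpp2A libraries thus had similar medians, while the 40 genes disagreed widely within a library. Δpph5 replicates 1, 2 and 3 lay at 0.385, -0.340 and -0.0453. The Δpph5-2 libraries lay at 0.634, 0.534, 0.640 and 0.382. Of the squared deviation of a library from the parent midpoint over all genes tested, the parent difference accounted for 64.5% and 55.9% in Δpph5 replicates 2 and 3, and for 14.7% in replicate 1. In Δpph5-2 this share was 23.6%, 26.6%, 48.4% and 1.5% in replicates 1 to 4, and in the Δpp2A libraries it ran from 4.45% to 11.7%. A share is low in a library near the midpoint, as Δpph5-2 replicate 4 was, and also in one that differs from the parents in other directions.

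**Figure D5:**
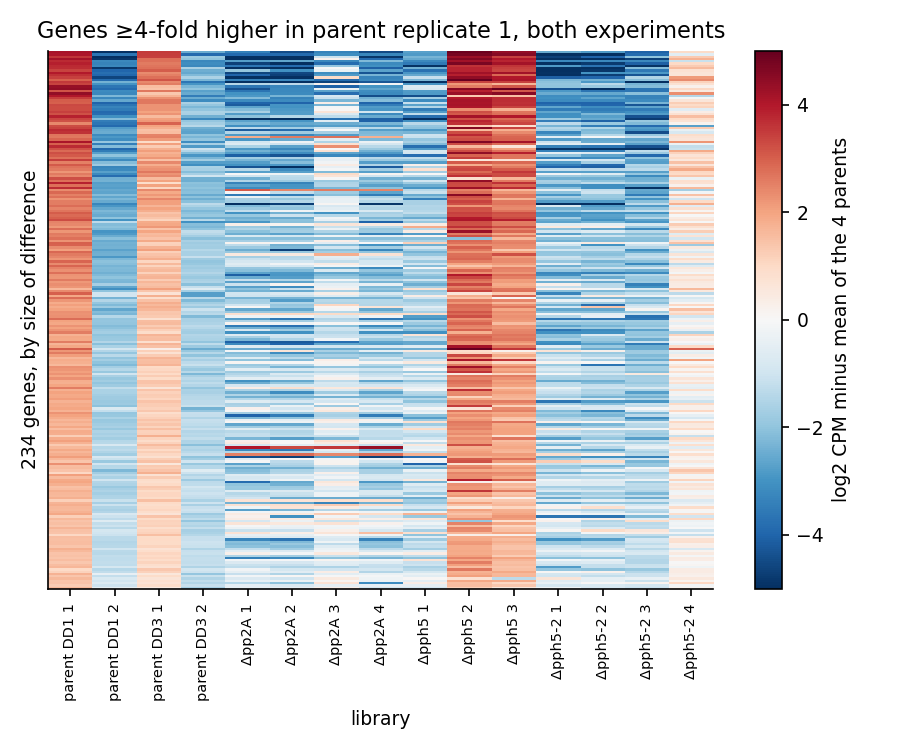
Log2 CPM of the 234 genes (rows, by size of the parent difference) in the 15 libraries (columns), relative to the mean of the 4 parent libraries; red is higher, blue lower, and colours saturate at the ends of the bar. Above that mean lie all 234 rows in parent replicates 1, 232 and 233 rows in Δpph5 replicates 2 and 3, 157 in Δpph5-2 replicate 4 between 20 and 61 in the Δpp2A libraries, 27 in Δpph5 replicate 1 and 6 to 15 in the other Δpph5-2 libraries.

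Differences within the deletion strains fell in part on the same genes. The ratios use no parent library, but they were read over the 8374 genes kept by the filter on the parent libraries. Genes too low in the parents are therefore missing from the counts and shares. Between Δpph5 replicates 1 and 2, 497 genes were at least 4-fold higher in replicate 2 and 143 in replicate 1, and these included 209 of the 234 genes, all higher in replicate 2. That is 32.7% of the genes apart in this pair and 89.3% of the group. Between replicates 1 and 3 the counts were 402 and 70, with 204 of the 234, all higher in replicate 3 (43.2% of the pair's genes and 87.2% of the group). Replicates 2 and 3 differed by 4-fold in 42 and 39 genes, 4 of them from the group. Of the genes past 4-fold between Δpph5 replicates 1 and 2, 91 (14.2%) were under 2-fold apart in both parent pairs.

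In Δpph5-2, replicate 4 was at least 4-fold higher than replicates 1, 2 and 3 in 178, 164 and 173 genes, of which 115, 114 and 127 belonged to the group. It was at least 4-fold lower in 82, 65 and 4 genes, 0 of them from the group. The group made up 44.2%, 49.8% and 71.8% of the genes apart in these pairs, and 2.79% of all genes tested. Replicates 1 and 3 of this strain differed by 4-fold in 128 and 44 genes and replicates 2 and 3 in 104 and 35, with 25 and 21 genes of the group that went both ways. Among Δpp2A libraries the pairs of replicate 3 with replicates 1, 2 and 4 differed by 4-fold in 38, 38 and 30 genes of the group, which is 34.5%, 25% and 26.5% of the genes apart in each pair. In the other Δpp2A pairs 2 to 8 genes of the group were apart, or 8.70% to 21.1% of the genes apart in a pair. Across the 8374 genes, the log2 ratio of Δpph5 replicate 2 to 1 correlated with that of parent replicate 2 to 1 at r = -0.757 and the ratio of Δpph5 replicate 3 to 1 at r = -0.786, both opposite in sign to the parents. The ratio of Δpph5 replicate 3 to 2 gave r = 0.125. For Δpph5-2 the ratios of replicate 4 to 1, 2 and 3 gave r = -0.545, -0.582 and -0.740. Pairs among its replicates 1, 2 and 3 gave r from 0.0238 to 0.0519. These correlations are descriptions over genes that share libraries, depth and scaling.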

How the data were processed

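Per the labels' protocols, a plant kit was used for RNA extraction, and stranded libraries were prepared with ribosomal RNA removed. The deposited table gives raw read counts per gene and library, made by the authors, with the gene length in bases. Per the submitters' processing notes HISAT2 2.2.1 was among the tools; how reads were counted, whether by strand, and on which build and annotation is not stated in the sources used here. Of the lengths 94.7% are multiples of 3, so they are called coding lengths.

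The comparison, gene groups and tests were chosen with earlier results of these data known. The main test was edgeR 4.0.16 under R 4.3.3 (filterByExpr by replicate number, which kept 8374 of 10879 genes; TMM; robust quasi-likelihood fit of the 4 parent libraries on replicate number and experiment tag). Adjustment was by Benjamini-Hochberg over every gene in the fit, and genes under 0.05 are called. DESeq2 1.42.0 served as an alternative. The difference of ratios between experiments was fitted over all 15 libraries, 1 mean per parent library and per deletion group.

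Levels are CPM scaled by TMM over the 15 libraries, and log2 ratios use a prior count of 2, which understates ratios of low genes. Fold limits were read on that scale. Positions were to be read over the genes called between parents; as 0 were called, genes at least 4-fold apart in both experiments took their place, and the rule for naming genes was changed likewise. Columns were matched to samples by title, and 0 columns were left out. Labels disagree for some libraries: Δpp2A replicate 1 has the type entry of a wild type, and the Δpph5-2 libraries have pph5, not pph5-2, in their strain entry. Groups follow the titles. Totals ran from 6026511 to 13572121 counts per library, and the floor given covers counting error alone, since reads carry no molecular identifiers.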

Additional observations from a re-analysis of the deposited data

Results flagged for a closer look

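In Δpp2A and Δpph5-2, with 4 libraries each, 20 sets of values were examined for a library far from the others. Of these sets, 7 held one. Chance gives about 1 in 20 sets for independent, normally distributed values, but these sets are not independent. Position, share of counts, TrE0998W and TrG0638W all follow the parent difference, so the 7 are not compared with chance. Δpph5-2 replicate 4 was the distant library in 4 of them. Its position along the parent difference was 0.400, against 0.962 to 1.01 in the other replicates. The genes higher in parent replicates 1 held 2.48% of its counts, and TrE0998W was at 6039 CPM. TrG0638W was at 0.690 CPM from 8 counts, where the other replicates had 0 counts, so any count stands apart.

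Δpp2A replicate 3 stood apart by the 1.31% of its counts in the genes higher in parent replicates 1 and by TrE0998W at 3536 CPM. In Δpp2A replicate 4 TrG1101W, the candidate for the deleted gene, was at 0.418 CPM from 4 counts, where the other libraries had 0 counts, so any count stands apart. The parents and Δpph5 have fewer libraries and were not examined. For the 4 named genes, the DD3 log2 ratio minus the DD1 log2 ratio had an adjusted p of 1 by edgeR in each. The differences were 1.02 for TrG0638W, which had 0 counts in both parent replicates 2, and 0.77 for TrE0998W. They were -1.60 for TrB1896C and -1.06 for TrG0087C. The error of this test holds the spread within the deletion groups, so these p-values do not show that the experiments agree.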

How the results depend on the processing

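The number of genes called between parent replicates 2 and 1, 0 in the edgeR fit reported, depended on the settings. It was 46 with upper-quartile scaling, 426 with library size only, 304 without a filter on low counts, 855 by DESeq2, 500 without the experiment block, and 3 with all 15 libraries in the fit. Of these, 46, 410, 303, 698, 497 and 3 were higher in replicate 1. RLE scaling gave 0. Leaving out 1 parent library, with the other 14 in the fit and the lone parent of a number assumed to vary like the other groups, gave 0 to 12 calls, and 349 and 351 genes with an unadjusted p under 0.05 without a DD1 library and 2047 without either DD3 library. Why the number of calls differed between the settings was not tested.

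The contrast of the experiment tags has the replicate number as its block. With no replicate block it gave 0 calls and 26 genes with an unadjusted p under 0.05, against 161 with it. The labels do not say that a number pairs the parents, and there are only 2 numbers. DESeq2 called 10 genes, the fit with all 15 libraries had 244 genes with an unadjusted p under 0.05, and leaving out a parent library gave 90, 92 or 533 such genes and 0 calls. For the difference between the DD1 and DD3 ratios DESeq2 called 3 genes, and leaving out a deletion library gave 0 calls and 188 to 638 genes with an unadjusted p under 0.05.

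The 4-fold group had 213 genes with library size only or upper-quartile scaling, 231 with RLE, 245 with a prior count of 0.5 and 240 without a filter. From the DD1 pair alone it had 535 and from the DD3 pair alone 252. The correlation of the DD1 and DD3 ratios was 0.667 without a filter. Mean positions of the deletion strains moved by less than their SD under the alternatives tried, except for Δpp2A on the genes higher in replicate 2. On those genes Δpp2A lay at 0.138. Δpph5-2 lay at 0.548 there, against 0.842 on the 4-fold group with an SD of 0.295, so it moved by nearly its SD. Without 1 library, mean positions ran from 0.865 to 0.965 in Δpp2A, from -0.166 to 0.386 in Δpph5 and from 0.786 to 0.989 in Δpph5-2. The 4 named genes kept their direction under all 11 alternatives. For p-values, those without a parent library are left out, since they rest on 1 pair. In the others, by edgeR or DESeq2, adjusted p-values ran from 0.00837 to 0.110 for TrG0638W and from 9.75e-06 to 0.145 for TrE0998W. They ran from 0.0478 to 0.213 for TrB1896C and from 0.00183 to 0.229 for TrG0087C.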
